A study of Mus musculus with 16 samples.

Results

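The chase of YBX1-/- leukemia cells was followed through its 8 libraries, of 16 in the series, and its 3 early libraries (0, 0.5 and 1 h) were compared with its 3 late libraries (12, 18 and 24 h), with 3 and 6 h as the path between. The cells were mouse leukemia cells, labelled as bone marrow of strain C57BL/6, and carried the YBX1-/- genotype; the other 8 libraries came from WT cells of that strain and tissue, handled alike. How the leukemia was made, the Cre or promoter used and the age of the animals are not stated in the labels. The assay was SLAM-seq, in which RNA made while 4-thiouridine (4sU, a uridine analog) is present is later read by T-to-C changes in the sequenced reads. All cells had grown with 50 µM 4sU over 24 h before an excess of uridine (10 mM) replaced it, so that every library began from labelled RNA. Each gene was represented by its interval with the highest mean CPM (reads scaled to library size, averaged by the authors over the libraries), and genes with a mean CPM of at least 5 were kept, which left 6027 of 21177 genes. The gene just inside that limit was Ttyh3, with a mean CPM of 5.00029 and rates of 30.8% at 0 h and 9.68% at 12 h, and the gene just outside was Galnt2, with 4.99823 and rates of 22.2% and 7.35%.

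The value followed is the T-to-C rate of an interval, in percent. Messenger RNAs differ widely in how long they last: transcripts of housekeeping machines such as ribosomes and the respiratory chain are known as long-lived, and those of signal-induced regulators and transcription factors as short-lived. AU-rich elements in 3′ UTRs recruit deadenylation and decay factors and are a classic mark of short-lived transcripts. YBX1 is a cold-shock domain protein that binds mRNA, and the title of the series asks about its effect on mRNA stability in myeloid leukemia cells through m6A, a methyl mark on adenosines. A rate falls in a chase when labelled transcripts decay and also when new unlabelled ones dilute them, and these cannot be told apart here. There was 1 library for each genotype and time point, so p-values measure the spread between neighbouring time points, which also includes real change within a phase, and not the spread between cultures or animals. No library's read depth is known, and a rate of exactly 0 may mean no reads or no converted reads.

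By mean CPM, 17 of 17 myeloid markers passed the limit of 5, with a summed CPM of 1.068e+04, whereas 0 of 9 erythroid, 0 of 7 T lymphoid and 0 of 7 stromal and endothelial markers did. Of 6 B lymphoid markers 1 passed, Cd79b (7.39), and of 5 megakaryocyte markers 2 did, the platelet genes Pf4 (39.8) and Ppbp (28.1). These means cover both genotypes, so a difference in cell make-up between libraries was not tested.

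The label left the YBX1-/- transcripts mostly between 1 and 12 h. The library median over 6027 genes was 33.3% at 0 h, 36.6% at 0.5 h and 29.6% at 1 h. It was 18.1% at 3 h and 4.55% at 6 h, and then 1.69%, 1.29% and 0.741% at 12, 18 and 24 h. No early library overlapped a late one. The early medians averaged 33.2% ± 3.50 (SD, n = 3 time points) and the late ones 1.24% ± 0.474, or 3.73% of the early value; a two-sided exact permutation test gave p = 0.1, the smallest that 3 against 3 libraries allow. In WT the same means were 45.2% ± 3.55 and 1.37% ± 0.667. Among the YBX1-/- genes, 5801 were lower late than early (96.3% of those tested, limma on log2 of the rate plus 0.1 percentage points, Benjamini-Hochberg adjusted p under 0.05), and 1 gene, Gm43720, was higher (0.0166%), with rates of 0 at 0, 0.5, 1 and 3 h. The median change was -4.85 on the log2 scale.

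**Figure D1:**
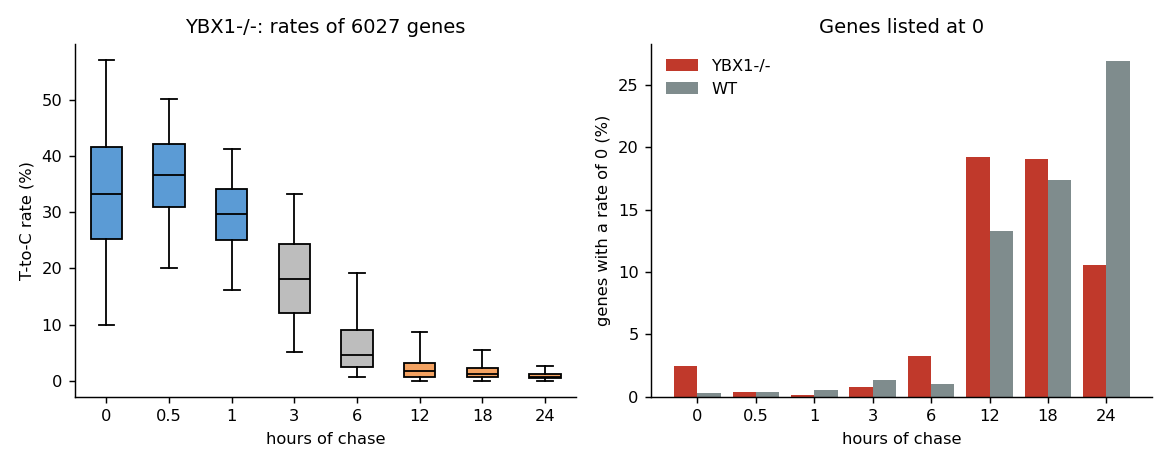
Left, T-to-C rate (%) of 6027 genes in each YBX1-/- library by hours of chase, with the median, the quartiles and whiskers at the 5th and 95th percentiles (early libraries blue, middle grey, late orange). Right, share of genes (%) listed at a rate of 0 in each library of both genotypes: the YBX1-/- 0 h library has 2.51%, against 0.382% and 0.116% in the other 2 early libraries, and 12 and 18 h have 19.2% and 19.1%.

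The YBX1-/- 0 h library stood apart from the other early libraries in scatter and not in level. Its median of 33.3% lay between those of 0.5 and 1 h. Across 6027 genes its log2 rates correlated with those at 0.5 h at r = 0.574 and at 1 h at r = 0.554, whereas 0.5 and 1 h correlated at r = 0.852; in WT the 3 values were 0.785, 0.723 and 0.711. These are descriptions across genes, which are not independent replicates. In the 0 h library 151 genes were at 0, and 11 were at 100%. Of those at 0, 70 had rates of at least 20% at both 0.5 and 1 h; 64 of the 70 had a mean CPM under 10, and 2 had at least 20, the interleukin gene Il1a and Vwa5a. The rates of Il1a were 0, 52.0% and 29.1% at 0, 0.5 and 1 h, and those of Vwa5a were 0, 46.2% and 34.0%.

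The disagreement of the 0 h library shrank as genes became more abundant. For genes with a mean CPM of 5 to 10 its correlation with 0.5 h was 0.445, for 10 to 20 it was 0.692, for 20 to 50 it was 0.807, for 50 to 200 it was 0.928, and for 200 or more it was 0.988. The SD of the 0 h rate minus the mean of the 0.5 and 1 h rates was 15.9 percentage points in the least abundant class and then 11.1, 8.22, 4.88 and 2.97. Its median rate was between 33.3% and 33.6% in all 5 classes, so no class of abundance was shifted in level. The number of reads in this library is unknown, and its part in the scatter was not tested. Late calls of named genes and lists are given below with and without 0 h where the call depends on it.

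**Figure D2:**
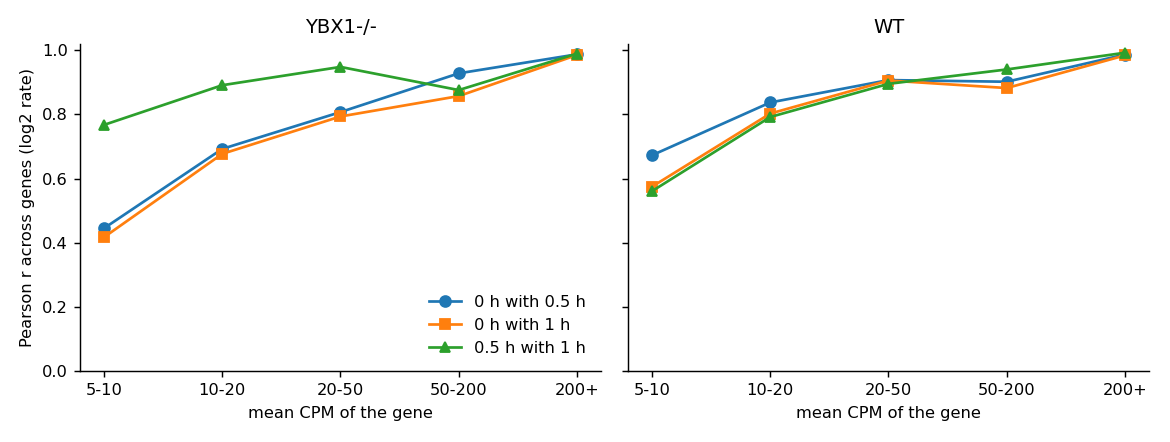
Pearson correlation across genes of log2 T-to-C rates between the early libraries (y axis) by mean CPM of the gene (x axis), for YBX1-/- and WT. In YBX1-/- the pairs with 0 h start at 0.445 and 0.417 for the least abundant genes, under the 0.767 of the pair of 0.5 and 1 h, and all 3 pairs are at 0.986 or above for the most abundant ones.

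Not every transcript had a high T-to-C rate in the early libraries. The mean early rate was at least 20% in 5669 genes, 5% to 20% in 257 and under 5% in 101. Of 46 genes under 1%, 37 stayed under 2% in every one of the 8 libraries, 19 had a mean CPM of at least 20 and 21 were also under 1% in the early WT libraries. The order of loss is therefore described over 1898 well-covered genes with a mean CPM of at least 20, a mean early rate of at least 20% and a rate above 0 in every early library, without predicted genes, Rik clones and pseudogenes. Well-covered here refers to the mean CPM over the libraries of both genotypes. The reads behind a gene's rate in any YBX1-/- library are not known.

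In these 1898 genes the median share of the mean early rate was 90.5% at 1 h, 66.6% at 3 h and 19.4% at 6 h, and then 5.87%, 4.37% and 2.33% at 12, 18 and 24 h. The spread between genes was widest on the path: at 3 h the 10th and 90th percentiles were 34.8% and 91.5%, and at 6 h they were 6.98% and 56.2%. The halving time is used below as a summary of that path. It is the hour of chase, interpolated from 1 h on, at which the rate first lay under 50% of the early mean. It is set to 1 h, meaning at most 1 h, where the 1 h rate was already under that level. Its median was 4.09 h, with quartiles of 2.90 and 5.17 h. It was at most 3 h in 528 genes, between 3 and 6 h in 1103, between 6 and 12 h in 256 and longer than 12 h in 11.

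The transcripts that lost label first included receptors, signalling proteins and transcription factors. The 6 shortest halving times belonged to Fpr2 (a formyl peptide receptor), Txnip (a thioredoxin inhibitor), Cd69 (an early activation antigen), Cebpd (a transcription factor), March1 (a ubiquitin ligase) and Pafah1b1 (a dynein regulator). Txnip had rates of 40.0%, 32.3% and 17.7% at 0, 0.5 and 1 h, of 5.34% and 3.41% at 3 and 6 h, and of 2.27%, 1.87% and 0.364% at 12, 18 and 24 h. Its halving time was 1.44 h, and leaving out each early library in turn gave 1 to 1.84 h. Cd69 went from 38.6%, 28.3% and 16.5% over 4.82% and 1.24% to 0, 0.778% and 0.683%. For both genes each library up to 6 h lay below the library before it. Cebpd had 31.3%, 25.5% and 13.9% in the early libraries, 5.38% and 1.09% on the path and 0.643%, 1.68% and 0.330% late, with a halving time of 1.49 h (1 to 1.95 h). The values of Fpr2 and Pafah1b1 leaned on single early libraries: Fpr2 had 54.5%, 35.3% and 16.4% early, 10.4% at 3 h and 21.8% at 6 h, and its halving time of 1 h became up to 2.16 h. Pafah1b1 had 71.0% at 0 h against 40.1% and 24.9%, and its 1.64 h became up to 3.46 h.

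The oncogene Myc, a textbook short-lived transcript, had a mean CPM of 8.88 and so was outside the well-covered set. Its rates were 48.0%, 35.5% and 19.0% at 0, 0.5 and 1 h, 4.65% and 1.45% at 3 and 6 h, and 2.16%, 1.57% and 0.980% late. Its halving time was 1.27 h, with a range of 1 to 1.75 h. Its change relative to the library median did not pass the threshold between early and late (0.38 ± 0.35 SE on the log2 scale, adjusted p = 0.60) or between early and middle (-1.71 ± 0.49, adjusted p = 0.11). Ybx1 itself still carried label, with 72.0%, 51.7% and 43.4% early, 48.9% and 31.1% on the path and 20.8%, 4.67% and 3.08% late. The 0 h value of Ybx1 stands above the rest, and its halving time of 7.90 h ranged from 6.12 to 10.3 h. Its interval lies past the last coding base and shows nothing of a deletion elsewhere in the gene.

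The AU-rich word UAUUUAU, searched as TATTTAT on the transcript's own strand, was present in the intervals of some of these fast transcripts and absent from others. Of the 6027 tested intervals 4573 (75.9%) lay wholly past the last coding base of the gene. That of Fpr2 did not, nor did those of Glipr1, Cenpx, Cope and Mcpt8, slow genes named below. The sites below are shown because they are those found among the 6 genes with the shortest halving times and the 8 genes named below as low at 3 and 6 h; 7 of these 14 genes held the word, and capitals mark it. The intervals are those of the deposited table, in GRCm38 coordinates counted from 1, and the letters come from the GENCODE M21 transcripts.
Cd69, chr6:129267933-129267961, minus strand: tctagagttacTATTTATtgccgaatgac
Cebpd, chr16:15889228-15889256, plus strand: ggttggacattTATTTATtgtaacagaac
March1, chr8:66469483-66469511, plus strand: aattctgcatgTATTTATgacacacctca
Pafah1b1, chr11:74677036-74677064, minus strand: ggctagtggttTATTTATgtaagaaaatg
Slc38a2, chr15:96687931-96687959, minus strand: aactgtactgtTATTTATagagcagcatt
Foxn2, chr17:88490026-88490054, plus strand: atgtagtcaaaTATTTATtgaaaggcaaa
Cggbp1, chr16:64856148-64856176, plus strand: gttcatttttaTATTTATtttaaatcatg
March1 held 3 copies, Foxn2 and Slc38a2 held 2 each, and Cd69, Cebpd, Pafah1b1 and Cggbp1 held 1. The intervals of Myc, Fpr2, Txnip, Spint1, Rrm2, Qrich1, Dyrk1a and Irf2bp2 held 0. Of the 11 slow genes named below for their late label or halving time, 1 held a copy, Fn1, and these slow genes had shorter intervals, of 40 to 692 bases.

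Over all 1898 well-covered genes the word was more frequent in the fast genes than in the slow ones when interval length was held within a band. Among 924 intervals of 500 to 2000 bases, 22.6% held it. The genes were ranked by halving time and cut into 10 classes of about equal size. In the class with the shortest times 30.9% of the intervals held the word (30 of 97), in classes 2 and 3 36.1% and 36.7% did, and in class 10, with the longest times, 4.76% did (2 of 42). The word TGTANATA, the site of Pumilio proteins, was in 21% of all 924 intervals, 32.0% of those in class 1 and 7.14% of those in class 10. The word GGACT, a common core of the m6A consensus, was in 63.3% of all, 73.2% in class 1 and 59.5% in class 10. Interval length moved with the order as well: its median was 1776 bases in class 1, 1134 over all and 284 in class 10, and within the band it was 1061 bases in class 1 and 811 in class 10. The part of length in these shares was not tested beyond the band. Spearman's rho of the halving time across the 1898 genes, which share the same libraries, was -0.43 with interval length and 0.31 with mean CPM; with the share of T in the interval it was -0.06.

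**Figure D3:**
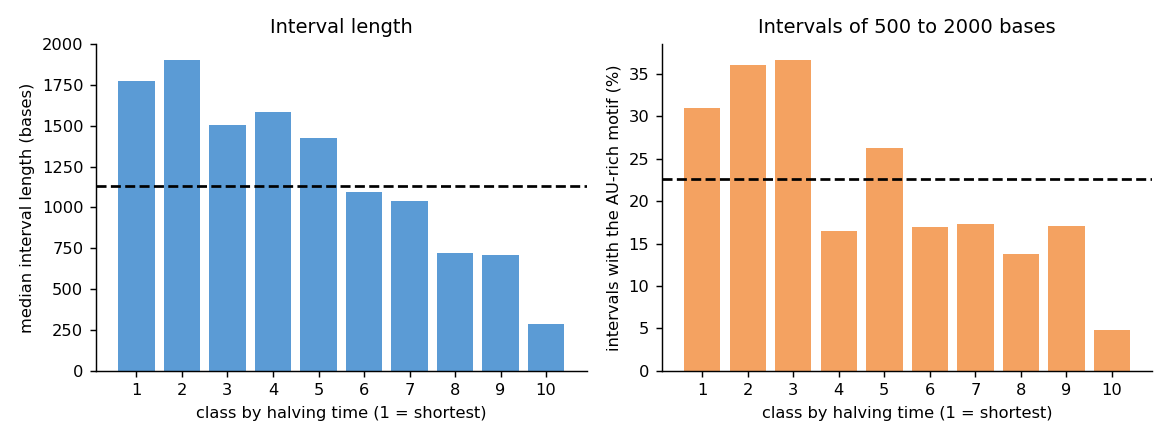
The 1898 well-covered genes in 10 classes of about equal size by halving time, from shortest (1) to longest (10). Left, median interval length in bases; right, share (%) of intervals of 500 to 2000 bases that hold the AU-rich word; dashed lines give the values over all these genes. Class 10 has the shortest intervals (284 bases) and the lowest share (4.76%).

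The first losses were tested by comparing 3 and 6 h with the early libraries after each library's median had been subtracted, so that a negative value means a fall ahead of the typical gene. In limma 0 of 6027 genes passed in either direction (0.0% higher, 0.0% lower; smallest adjusted p = 0.108, unadjusted p under 0.05 for 1265 higher and 834 lower). The 3 and 6 h libraries differ by a large step of the chase, and they form the middle group of 2. With genes limited to a mean CPM of at least 20, 160 of 2061 were lower (7.76%) and 14 higher (0.679%). In that fit the library medians were taken over the 2061 genes, and were 21.6% at 3 h and 6.67% at 6 h. Coefficients are lower against that reference: -1.92 and not -1.54 for Rrm2, and 0.96 and not 1.34 for Dera. The split of lower and higher genes therefore depends on the reference, and the 2 fits are not like for like. With 6 h alone against early, where the lone library is assumed to vary like the early ones, 1182 of 6027 were lower (19.6%) and 1691 higher (28.1%).

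The 8 genes named as low on the path, by smallest p, were Spint1, Rrm2, Qrich1, Dyrk1a, Foxn2, Irf2bp2, Slc38a2 and Cggbp1. None passed over 6027 genes (adjusted p = 0.11 for each), and all 8 passed among the 2061 genes of higher CPM (adjusted p = 0.043 for each, limma). The coefficients given here are those of the fit over 6027 genes. Rrm2, a subunit of ribonucleotide reductase, had 44.3%, 41.8% and 32.6% at 0, 0.5 and 1 h, 8.09% and 1.62% at 3 and 6 h, and 1.86%, 0.692% and 1.22% late; its coefficient was -1.54 ± 0.30 (SE). Slc38a2, an amino acid transporter, had 42.3%, 45.7% and 26.5%, then 8.56% and 1.14%, then 0.794%, 2.90% and 0.826%, with a coefficient of -1.66 ± 0.41. Foxn2, a forkhead transcription factor, had 48.9%, 50.9% and 40.6%, then 14.3% and 2.34%, then 1.63%, 2.21% and 0.622%, with -1.13 ± 0.25. In all 3 genes the 3 and 6 h rates lay below every early rate, and below the library median of 18.1% at 3 h and 4.55% at 6 h. The other 5 were at 4.97% to 10.7% at 3 h and at 1.46% to 2.97% at 6 h.

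At the other end were genes still near their early rate at 3 h. Dera, Penk, Spcs3, Smpdl3a, Tcn2, Pgap2, Cyfip2 and Bzw1 had the smallest p among genes that were relatively high on the path, with adjusted p = 0.11 for each over 6027 genes. Among the 2061 genes of higher CPM, 6 of the 8 passed, and Pgap2 and Bzw1 did not (adjusted p = 0.063 and 0.052). Spcs3, a signal peptidase subunit, had 29.2%, 35.0% and 29% early, 33.5% at 3 h and 12.8% at 6 h, and then 1.57%, 1.51% and 1.35%. Penk, the enkephalin precursor, had 21.3%, 24.1% and 21.6%, then 25.6% and 9.79%, then 3.07%, 1.83% and 1.38%. In both, 3 h did not lie below the early range, and the loss fell between 3 and 12 h.

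**Figure D4:**
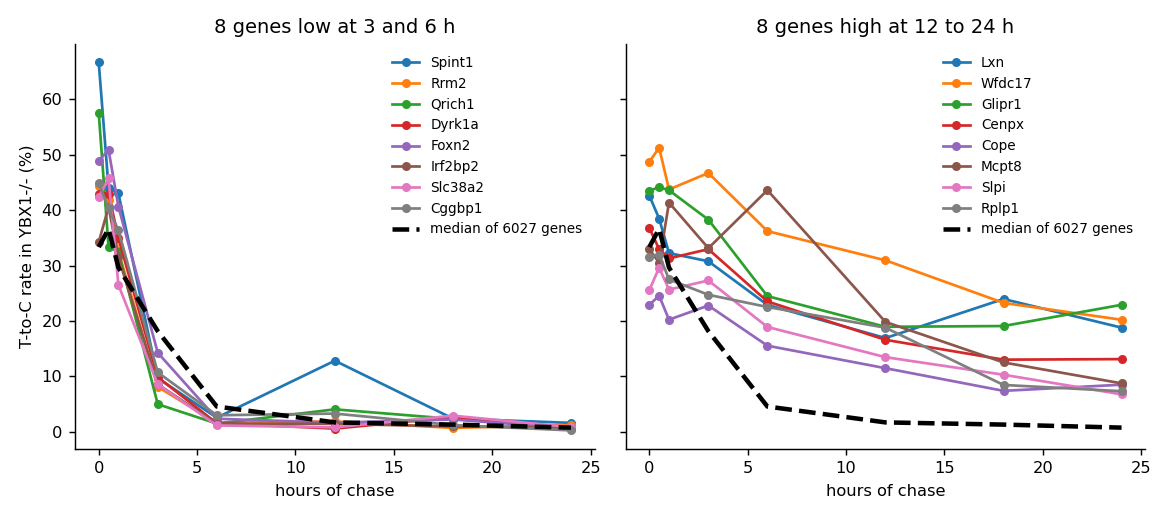
T-to-C rate (%) of named genes in each YBX1-/- library by hours of chase; the dashed line is the median of 6027 genes. Left, the 8 genes with the smallest p among those low relative to the median at 3 and 6 h, which all lie at 14.3% or less at 3 h; right, the 8 genes with the largest late coefficients among those that passed, which lie between 6.75% and 30.9% there while the median is at most 1.69%.

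Transcripts that lost label last were tested by comparing late with early libraries on the same centred scale, where a positive value means more label kept than by the typical gene. Of 6027 genes 301 were higher (4.99%) and 7 lower (0.116%). This comparison and the one of 3 and 6 h share the 3 early libraries, so their values are not independent. Of the 301, 257 had a mean early rate of at least 20% and 30 had 5% to 20%. The other 14 had under 5% and so started from a low rate. The 257 kept a median of 18.1% of their early rate in the late libraries, against 3.90% over all 5669 genes with such label, of which they are 4.53%. Their median interval length was 370 bases, against 1252 bases. The 7 lower genes had a mean CPM of 11 or less and were listed at 0 in all 3 late libraries, so the size of their coefficients depends on the added 0.1 percentage points.

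These calls depended on having all 3 early libraries. Without 0 h, 73 genes were higher and 0 lower (unadjusted p under 0.05 for 683 and 97), and all 301 kept a positive coefficient. Without 0.5 h, 0 passed in either direction (639 and 61 unadjusted), and without 1 h, 35 and 0 did (679 and 70). Without 12 h there were 325 higher and 79 lower genes, without 18 h 189 and 12, and without 24 h 661 and 385. The named genes below that passed had an adjusted p between 0.0064 and 0.050 with all 6 libraries, and 0 of them passed without 0.5 h.

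The 8 well-covered genes with the largest coefficients among those that passed were Lxn, Wfdc17, Glipr1, Cenpx, Cope, Mcpt8, Slpi and Rplp1. Without 0 h, Lxn, Wfdc17 and Glipr1 did not pass (adjusted p = 0.059, 0.077 and 0.082) and the other 5 did (0.049 for each). Wfdc17, a secreted protein of activated myeloid cells, had 48.7%, 51.3% and 43.7% at 0, 0.5 and 1 h, 46.7% and 36.2% at 3 and 6 h, and 30.9%, 23.3% and 20.2% at 12, 18 and 24 h. Its coefficient was 3.73 ± 0.44 (SE, adjusted p = 0.0083, limma), and its halving time was 17.5 h, the longest of the 1898. Slpi, an inhibitor of leukocyte proteases, had 25.6%, 29.6% and 25.7%, then 27.3% and 18.9%, then 13.5%, 10.3% and 6.75%, with 3.25 ± 0.22 (adjusted p = 0.0064). Early and late rates did not overlap in either gene, and in both the 3 h rate lay within the early range. Mcpt8, a granule protease of basophils, had 32.9%, 30.5% and 41.4% early, 33.1% and 43.6% on the path and 19.8%, 12.5% and 8.73% late, so that its 6 h library was its highest. Lxn, a carboxypeptidase inhibitor, and Glipr1 did not fall further within the late phase: Lxn had 16.9%, 24.0% and 18.8%, and Glipr1 had 18.9%, 19.1% and 22.9%. In WT the late rates of Lxn were 15.3%, 15.8% and 24.9%, and those of Glipr1 were 18.7%, 1.69% and 21.4%. Whether the late conversions of these genes were 4sU label was not tested. The 6 longest halving times also included those of Fn1 (fibronectin, 14.4 h), Cfp (properdin of the complement system, 14.3 h), Rplp1 (14.1 h), Mcpt8 (13.9 h) and Cox6c (13.4 h). Fn1 had 45.0%, 45.0% and 36.7% early and 26.2%, 13.8% and 1.61% late; its late spread was wide and it did not pass (2.40 ± 0.72, adjusted p = 0.14).

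Genes for proteins of the cytosolic ribosome had the longest median halving time of the lists. Of its 33 tested genes 15 were higher (4.99% over all genes) and 0 lower, and 30 had a positive coefficient with a median of 1.85, where all genes had -0.15. Without the 0 h library 6 were higher and the median was 1.78. The median rates of the list were 27.1%, 28.8% and 25.9% early, 24.2% and 16.9% at 3 and 6 h, and 7.62%, 3.79% and 1.92% late, and its median halving time was 8.23 h. Halving times of lists cover all tested members with a mean early rate of at least 20%, also those of low CPM. The median over all 5669 such genes was 3.36 h, against 4.09 h over the well-covered ones. Rpl41 had 26.2%, 28.4% and 26.2%, then 26.2% and 22.0%, then 12.2%, 7.19% and 3.83% (2.76 ± 0.24, adjusted p = 0.0064). Rps20 had 18.8%, 35.4% and 22.6% early and 12.9%, 7.53% and 5.27% late, with 0 h lowest of the early values. Rplp1, an acidic stalk protein, had 31.6%, 32.0% and 27.5% early and 18.8%, 8.44% and 7.32% late, over an interval of only 40 bases. Ribosomal protein genes have many processed pseudogenes, and the labels do not say how reads were shared among the copies.

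The respiratory chain and ATP synthase list behaved alike in its counts. Of 70 tested genes 27 were higher (4.99% over all genes) and 0 lower. The median coefficient was 1.31 and the median halving time 7.53 h. Without 0 h 4 of the 70 were higher. Ndufc1, a complex I subunit, had 33.3%, 35.5% and 30.0% early, 30.3% and 19.8% on the path and 8.70%, 5.26% and 3.47% late (2.12 ± 0.21, adjusted p = 0.0064). Atp5k had 33.3%, 27.8% and 28.2% early and 14.3%, 8.20% and 5.44% late. Cox6c, of complex IV, had 33.3%, 35.1% and 28.5% early, 29.6% and 23.6% on the path and 18.3%, 8.90% and 3.95% late. The late rates of all 3 lay below the early ones and above the library median of the same hour. Intervals on both lists were short, with median lengths of 222 and 182 bases against 1244 over all genes, and Atp5e's covered 3 bases; the part of length in these counts was not tested.

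Granule proteins and other myeloid effectors, the secreted products of neutrophil and monocyte precursors, also kept label long. Of 54 tested genes 21 were higher (4.99% over all genes) and 0 lower. The median coefficient was 1.38 and the median halving time 7.17 h. Without 0 h 6 were higher. The intervals of this list were short too, with a median of 235.5 bases against 1244 over all genes. Its genes were abundant, with a median CPM of 95.3 against 13.6. Among the 2061 genes with a mean CPM of at least 20, fitted alone, 256 were higher. The part of length and abundance in the granule count was not tested. Lyz2 (lysozyme), the most abundant member with a mean CPM of 7376, had 33.1%, 38.6% and 31.1% early, 33.4% and 19.4% on the path and 7.55%, 5.78% and 2.91% late (1.96 ± 0.20, adjusted p = 0.0069). Chil3, a chitinase-like protein, had 40.6%, 37.3% and 30.7%, then 36.6% and 30.8%, then 19.4%, 9.71% and 7.36%. Elane, neutrophil elastase, was labelled less, with 19.8%, 17.4% and 14.7% early, and had 7.77%, 3.67% and 2.22% late. In all 3 the 3 h rate lay within the early range. In glycolysis 2 of 10 genes were higher (4.99% over all genes), Pgk1 and Pkm (adjusted p = 0.047 and 0.050), and neither passed without 0 h (0.16 for each). Of the translation factors 1 of 29 was higher, Eef1b2, a share near that of all genes. Of 29 proteasome genes 0 were higher or lower; their median rates were 24.7% at 3 h and 2.08% at 12 h and their median halving time was 5.20 h, so that they left between the ribosomal list and the median gene. The splicing factors (40 tested, 4.56 h) and chaperones (21 tested, 4.75 h) had 0 calls too. Such counts of 0 are near the shares over all genes (4.99% higher, 0.116% lower).

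**Figure D5:**
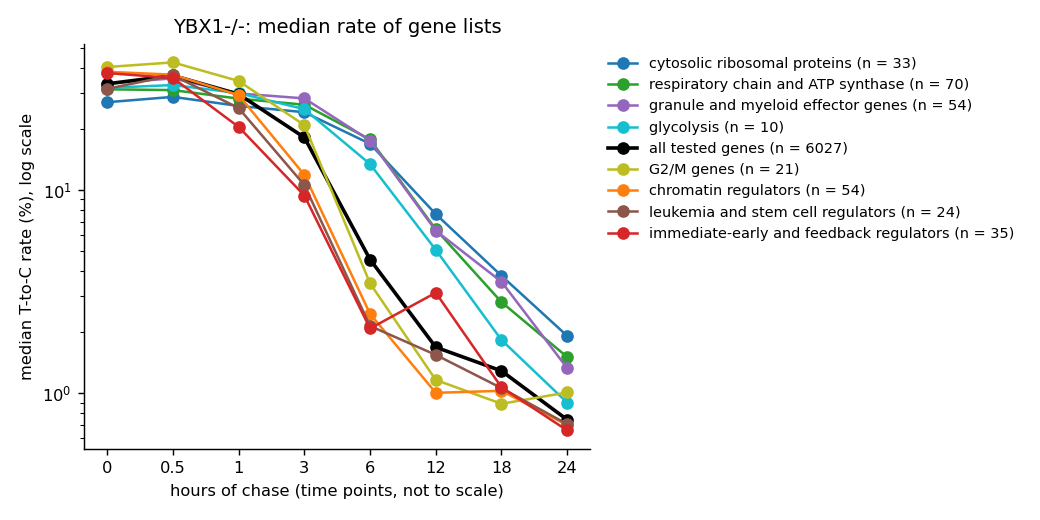
Median T-to-C rate (%) of gene lists in each YBX1-/- library, on a log axis, by time point of the chase (evenly spaced). The ribosomal, respiratory and granule lists lie at 16.9% to 17.7% at 6 h while all genes lie at 4.55% and the immediate-early list at 2.08%, and the immediate-early list is higher at 12 h (3.12%) than at 6 h.

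The fast lists held regulators. Over the 35 tested immediate-early and feedback regulators, genes switched on by signals and then silenced, the median rates were 37.7%, 35.6% and 20.4% at 0, 0.5 and 1 h and 9.40% and 2.08% at 3 and 6 h. All 35 had a negative coefficient between early and middle libraries (median -0.75, against 0.05 over all genes), 5 of 12 passed among genes of higher CPM (7.76% of all such genes were lower), and the median halving time was 2.07 h. Ier5 had 35.5%, 33.5% and 19.6% early, 9.04% and 1.35% on the path and 2.86%, 2.13% and 1.68% late. Klf6, a zinc finger transcription factor, had 40.0%, 25.4% and 20.4%, then 9.12% and 2.87%, then 7.14%, 3.17% and 0.784%. Both were lower at 1 h than at 0.5 h, and lower at 6 h than at 12 h.

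Leukemia and stem cell regulators followed, with 22 of 24 coefficients negative on the path, a median of -0.93, 5 of 11 lower among genes of higher CPM and a median halving time of 2.24 h. Meis1, a homeobox factor of myeloid leukemia, had 27.3%, 36.8% and 23.4% early, 8.70% and 3.18% on the path and 6.45%, 5.30% and 1.68% late; it was relatively high late (1.85 ± 0.30, adjusted p = 0.022; 0.092 without 0 h). Runx3 had 34.8%, 34.0% and 27.3% early, 9.77% and 2.12% on the path and 0, 0 and 0.285% late. The G1 cyclins and E2F axis had a median halving time of 2.29 h with 4 of 11 lower, p53 targets 2.37 h with 4 of 9, the Zfp zinc finger genes 2.39 h with 1 of 8, chromatin regulators 2.49 h with 2 of 9 and myeloid transcription factors 2.54 h with 3 of 8. Over all 2061 genes of higher CPM 7.76% were lower on the path. In each of these lists 0 such genes were higher, which is near the 0.679% over all of them.

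Genes of the m6A machinery, which the title's question touches, were mixed. Of 16 tested, 0 passed between early and late and 12 had a negative coefficient on the path (median -0.40), with a median halving time of 2.52 h that spanned 1.83 to 7.32 h. The reader Igf2bp3 had 29.4%, 32.8% and 33.1% early, 17.9% and 2.76% on the path and 4.58%, 2.07% and 2.92% late. Hnrnpc had 37.8%, 39.9% and 35.5%, then 36.9% and 17.7%, then 5.16%, 3.16% and 1.35%. The first was well below its early range at 3 h and the second was within it. In the Bcl2 family of cell death regulators 10 of 12 coefficients on the path were negative and the median halving time was 2.70 h; Bcl2l11 had 44.4%, 31.7% and 21.7% early, 8.70% and 6.78% on the path and 3.45%, 4.88% and 1.95% late.

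A few genes on the other lists had a nearly constant T-to-C rate late. No unlabelled library was in the set, so whether these late conversions were 4sU label was not tested. Zfp511 had 29.4%, 29.7% and 34.7% early, 20.2% and 10.6% on the path and 17.8%, 14.5% and 14.1% late, so that it did not fall after 6 h (3.68 ± 0.35, adjusted p = 0.0064; 0.049 without 0 h). Aurkb, a mitotic kinase, had 10.6%, 11.1%, 10.3% and 12.0% from 6 to 24 h after 49.0%, 53.5% and 34.3% early (2.70 ± 0.40, adjusted p = 0.016; 0.076 without 0 h). Trp53, which codes for p53, had 33.0% and 13.2% on the path and 8.58%, 10.8% and 11.5% late, after 47.7%, 37.5% and 33.5% (2.77 ± 0.43, adjusted p = 0.019; 0.072 without 0 h). Their halving times were 4.43 h, 2.43 h and 5.0 h, so that Aurkb was the only one of the 3 under the median of 3.36 h over all labelled genes. At 24 h they were at 14.1%, 12.0% and 11.5%, against a library median of 0.741%. In WT the late rates of Zfp511 were 4.71%, 4.47% and 14.6%, and those of Aurkb were 0.858%, 0.728% and 1.67%.

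The genes named as low late relative to early, by smallest p among the well-covered genes, were Mreg, Tmem222, Chchd3, Rpe, Ran, Rgs18, Rbm26 and Naa15, and none passed (adjusted p from 0.083 to 0.20). Tmem222 had 43.4%, 37.7% and 30.4% early, 18.5% and 2.22% on the path and 0.228%, 0.372% and 0.167% late. Chchd3, a mitochondrial crista protein, had 40.4%, 41.7% and 33.0%, then 27.7% and 6.98%, then 0.392%, 0.352% and 0.311%. Ran, a GTPase of nuclear transport, had 48.4%, 50.1% and 42.1%, then 34.8% and 18.8%, then 1.28%, 0.968% and 0.710%. The 8 differed on the path. Rbm26 and Naa15 were fast, with halving times of 2.27 and 2.20 h, and were lower at 3 and 6 h among the genes of higher CPM (adjusted p = 0.043 and 0.045, limma). Chchd3 and Ran were above the library median at 3 and 6 h and below it at 12, 18 and 24 h.

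The path between 6 and 12 h was not downward for every gene. Of the 1898 well-covered genes 114 (6.01%) had a higher rate at 12 h than at 6 h, against 4 of 1939 genes chosen the same way in WT (0.206%). Between 1 and 3 h the counts were 168 and 26 (8.85% and 1.34%), whereas between 3 and 6 h they were 27 and 92 (1.42% and 4.74%). From 0 to 0.5 h 68.7% of the genes rose in YBX1-/- and 83.45% in WT. From 0.5 to 1 h 4.64% and 24.2% did. The shares were 29.45% and 13.77% from 12 to 18 h, and 16.8% and 35.7% from 18 to 24 h. The genotype with more rises thus changed from step to step. Over all 6027 genes 13.7% were higher at 12 h than at 6 h in YBX1-/- and 3.32% in WT. Of the 35 immediate-early genes 22 were (62.9%), and of the 12 chemokines and cytokines 6 were (50.0%), against 0 of either list in WT. Of the 33 ribosomal and 70 respiratory genes 0 were in either genotype. The genotypes began this step from unlike levels. The immediate-early medians at 6 and 12 h were 2.08% and 3.12% in YBX1-/-, and 6.77% and 1.99% in WT. Those of chemokines and cytokines were 7.13% and 5.55%, and 10.3% and 2.34%. The part of the 6 h level in these counts was not tested. Tnfaip3, which codes for the NF-kappaB inhibitor A20, had 36.4%, 36.8% and 29.9% early, 12.5% and 3.70% on the path and 17.6%, 9.09% and 3.12% late (2.61 ± 0.38, adjusted p = 0.015; 0.072 without 0 h). March1 had 4.17% and 2.94% at 3 and 6 h and 30.8%, 7.32% and 1.41% late, against 28.6%, 41.4% and 18.5% early. With 1 library per time point a higher 12 h rate has no replicate, and the depth of that library is unknown.

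The same early and late libraries of WT show how far the YBX1-/- order is its own. In the interaction of genotype and phase, fitted by limma over 12 libraries, 0 of 6027 genes were higher (0.0%) and 1 was lower (0.0166%); at an unadjusted p under 0.05 the counts were 268 and 207. The 1 gene, N4bp2, had 40.0%, 32.6% and 32.4% early in YBX1-/-, 10.7% and 1.28% on the path and 0 in all 3 late libraries. In WT it had 47.9%, 33.3% and 32.3% early and 7.03%, 4.55% and 3.33% late. Its coefficient was -5.83 ± 0.67 (adjusted p = 0.016), whose size depends on the late zeros; its mean CPM was 6.09, and without any 1 of the early libraries of either genotype the adjusted p was 0.054 to 0.13. None of the genes named by rule here passed: Asf1a, Kctd12, Idh2, Tlr2 and Ccr2 had the smallest p among those higher in YBX1-/- (adjusted p from 0.13 to 0.19), and Adcy7, Fam32a, Mcpt8, Rab8a and Tmem222 among those lower (0.13 to 0.15). The median interaction of the ribosomal list was -0.30, of the respiratory list 0.11 and of the granule list 0.00, with 0 calls in each.

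Over 1895 well-covered genes with an early rate of at least 20% in WT too, halving times of the 2 genotypes had a Spearman rho of 0.75, a description across genes whose libraries are not shared. The median was 4.09 h in YBX1-/- and 3.36 h in WT, and 690 of the 1895 genes had the shorter time in YBX1-/-. The order of the genotypes was not the same along the path. Over 6027 genes the library medians at 3 and 6 h were 18.1% and 4.55% in YBX1-/-, and 20.1% and 10.1% in WT. The early means were 33.2% and 45.2%. YBX1-/- thus kept the larger share of its early level at 3 h, and WT at 6 h. The genotypes differ already in the early level of label, and with 1 series of libraries each the difference of median halving times was not tested.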

How the data were processed

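The authors deposited T-to-C rates per interval and library as a fraction from 0 to 1, with a mean CPM, a coverage signal on Ts, a count of Ts and a score column per the file headers; the sources used here do not say whether its denominator is reads or covered Ts. CASAVA, HISAT2 2.1.0 and the human build GRCh38 were named in the submitters' processing notes, although the samples are mouse; the T content of 6016 of 6016 intervals with a GRCm38 sequence was equal to the deposited count. Background was not subtracted, for want of an unlabelled library in the set.

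Rates in percent were analysed as log2(rate + 0.1), which understates changes of low rates, after subtraction of each library's median where a change is called relative. Each such median was taken over the genes in that fit. Coefficients came from limma 3.58.1 (R 4.3.3, trended prior variance); adjusted p are Benjamini-Hochberg values over all genes tested; the threshold was 0.05. Phases were early, middle and late, and time points stood in for replicates. Simulated data held 50 genes for each log2 size of 1, 2, 4 and 8 among the 6027. The relative early against late test recovered 2, 14, 32 and 39, with 5 false calls. The genotype difference recovered 0, 6, 19 and 42, with 2. A measured rate cannot fall below 0. Zfp950, at 0 in all 3 late libraries, had a relative early against late coefficient of -4.10. Recovery of falls near or beyond that size in measured rates was not tested.

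Named genes followed a rule: Ybx1 and Myc always; from the well-covered genes, the 8 largest coefficients per direction among those past the threshold for each relative comparison and 5 for the genotype difference, filled by smallest p where fewer passed; the 6 shortest and 6 longest halving times; and up to 4 per list by smallest p, of which some are shown. Members, lists and rules were chosen with earlier results of these data known. Alternatives were the added value, the CPM limit, the interval, the scale, the centring and leaving out libraries.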

Additional observations from a re-analysis of the deposited data

Results flagged for a closer look

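N4bp2 was picked out because its change from early to late differed between the genotypes in the test of that difference: -5.83 on the log2 scale (YBX1-/- minus WT, limma, adjusted p = 0.016). Over the alternatives that leave out 1 library the coefficient lay between -6.13 and -5.59 and the adjusted p between 0.0034 and 0.13. On the arcsine square root scale the adjusted p was 0.34, and with no filter on CPM it was 0.62.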

How the results depend on the processing

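The count of genes lower late than early was 5801 and became 2022 with a mean CPM of at least 20, where fewer genes were tested; the 1 higher gene became 0 under that limit, with no filter and with the longest interval. Relative to the library median, the 7 genes lower late became 0 with an added value of 0.01, 17 with 0.5, 25 with no filter, 13 with a CPM of at least 20, 84 without a trend, 29 on the arcsine square root scale, 14 with centring on the mean and 31 with all 8 libraries in the fit; the cause was not tested. On the path the 0 higher and 0 lower genes became 14 and 160 with a CPM of at least 20, where the library medians were those of the abundant genes. For the genotype difference the 0 higher genes became 50 without a trend and 1 without centring, and the 1 lower gene became 5 with an added value of 0.5, 21 without a trend, and 0 with no filter, with a CPM of at least 20 and on the arcsine square root scale. With no filter the library medians were 27.4% at 0 h and 0 at 12 and 18 h.

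Leaving out 1 library at a time gave 1 to 3 higher and 5669 to 5812 lower genes between late and early, 0 to 661 and 0 to 385 on the relative scale, 0 to 1691 and 0 to 1182 on the path, and 0 to 74 and 0 to 102 for the genotype difference; the median halving time was 3.94 to 4.26 h, and 4.06 h against the mean of 0.5 and 1 h. Time points are shared by the genotypes, but deviations of same-hour libraries correlated at 0.017 to 0.051, so they were not treated as paired; with the time point as a block the 1 lower gene became 0, with an adjusted p of 0.10 for N4bp2.

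Of 1031 alternative values for 66 genes on the relative scale 6 changed sign: with no filter Ran became 0.35, Rbm26 0.12 and Naa15 0.01, and on the arcsine scale Ybx1 became -0.05, Ccl9 -0.02 and Ccl6 -0.01. None of these genes had passed.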

Other observations

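Of the chemokines and cytokines all 12 tested genes had a positive coefficient between late and early libraries (median 0.93, 0 passed). On the path 8 of the 12 coefficients were positive (median 0.24, against 0.05 over all genes), and their median halving time was 2.87 h, against 3.36 h over all labelled genes. Il1rn, which codes for the antagonist of the interleukin-1 receptor, had 18.7%, 23.3% and 21.2% early, 22.8% and 8.51% at 3 and 6 h and 4.21%, 2.59% and 0.986% late (1.52 ± 0.32 SE, limma, adjusted p = 0.051).

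Of the 1898 well-covered genes 10 had a 12 h rate at least 5 percentage points above the 6 h rate, against 1 of 1939 in WT; these genes and this step were chosen after their values were seen. They were March1, Il1b, Itga1, Cxcl2, Spint1, Pid1, S100a4, Tlr13, Serpinb2 and Arhgap30, with a median mean CPM of 24.3 against 36.5 for the 1898. Il1b, which codes for interleukin-1 beta, had 14.3%, 32.5% and 16.7% early, 9.52% and 0 at 3 and 6 h and 22.2%, 8.70% and 0 late. Its WT rates were 8.43% at 6 h and 2.33% at 12 h. Cxcl2, a neutrophil chemokine, had 52.0%, 45.1% and 35.7% early, 25.5% and 8.60% on the path and 20%, 0 and 4.55% late. Pid1 had 40%, 61.9% and 25% early, 60% and 0 on the path and 10%, 0 and 0 late. With 1 library per time point these values have no replicate.

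Of the 207 genes with an unadjusted p under 0.05 and a lower interaction in YBX1-/-, 37 (17.9%) were on chromosome 8, which holds 337 of the 6027 tested genes (5.59%); of the 268 higher ones 16 were (5.97%). The named genes Adcy7, Fam32a and Rab8a are on it. Their late rates averaged 8.2%, 6.64% and 5.70% in WT, where the late library medians averaged 1.37%. In YBX1-/- they averaged 2.0%, 0.932% and 0.812%, against 1.24%. Leaving that chromosome out left the genotype counts at 0 higher and 1 lower.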
